A study of Mus musculus with 3 samples.

Results

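Transcription factors that mark or shape connective tissue were described here as 1 group of 9 genes: *Tcf21*, *Tbx3*, *Nr2f2*, *Meis2*, *Prrx1*, *Twist2*, *Zeb2*, *Wt1* and *Runx1t1*. They were taken by name from the gene rows of the deposited single cell table, where they are 9 of the 9781 rows used. The rule that names them uses no measured value, but the list was chosen with earlier results of these data known. Droplet single cell RNA-seq had been done on 3 mouse tissues, with 1 library each: urogenital sinus (UGS, the embryonic source of the prostate) of males at E18.5, prostate at P14 and prostate at P35. The tissues were labelled with a normal disease state and no treatment. No genotype is labelled, and according to the methods of the study its mice carried mixed C57BL/6 and 129S1/SvImJ backgrounds and included reporter, Cre and transgene lines. How many animals went into a library is not given in the sources used here.

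The cells of all libraries sit in 1 table whose barcodes end in 1, 2 or 3. As the labels hold no key from ending to tissue, the endings are called barcode sets 1, 2 and 3, values are given side by side for each set, and no age was compared with another. With no replicates there is no test and no p-value. Captured mRNA molecules were counted by unique molecular identifiers (UMIs), and a level is a gene's summed UMIs in every 1000000 UMIs of the class (CPM), and every 95% interval covers counting error only, not the spread between animals. CPM is not corrected for gene length, so levels are compared for 1 gene between cell classes and not between genes.

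Mesenchymal transcription factors set up and keep the identity of fibroblasts, smooth muscle cells and pericytes. In the developing prostate the mesenchyme sends signals that make the epithelium of the UGS bud and branch, and several of these factors act there or in the mesenchyme of kidney, lung, heart or limb. *Tcf21* and *Twist2* encode basic helix-loop-helix proteins, *Tbx3* a T-box repressor, *Meis2* and *Prrx1* homeodomain proteins, *Nr2f2* the orphan nuclear receptor COUP-TFII, *Zeb2* and *Wt1* zinc finger proteins, and *Runx1t1* a corepressor of the ETO family.

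In mm10 (RefSeq, GRCm38.p6) the genes lie far apart from each other. Chromosome 1 holds *Twist2* (chr1:91801461-91848034) and *Prrx1* (chr1:163245119-163315145), and chromosome 2 holds *Zeb2* (chr2:44983512-45117442), *Wt1* (chr2:105126529-105173614) and *Meis2* (chr2:115861264-116067537). The others are *Runx1t1* (chr4:13742628-13895056), *Tbx3* (chr5:119670534-119684724), *Nr2f2* (chr7:70351946-70366746) and *Tcf21* (chr10:22817263-22820143). All are annotated as protein coding, and a UMI was counted for the gene as a whole.

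Upstream sequence is shown for the pair of helix-loop-helix genes, whose levels went together over cell classes (Pearson's r 0.85 over 24 points, described further on) although their start regions are unlike in base composition. Each line is the 250 bases before the annotated start on the strand of the gene, in lower case, from RefSeq on GRCm38.p6. For *Tcf21* it is chr10:22820144-22820393 on the minus strand, and for *Twist2* chr1:91801211-91801460 on the plus strand. Capitals mark a CCAAT motif.
*Tcf21*: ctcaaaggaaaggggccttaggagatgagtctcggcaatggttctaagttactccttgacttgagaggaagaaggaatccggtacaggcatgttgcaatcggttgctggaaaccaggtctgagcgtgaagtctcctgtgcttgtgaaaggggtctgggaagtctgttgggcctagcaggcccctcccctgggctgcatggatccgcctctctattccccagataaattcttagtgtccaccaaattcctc
*Twist2*: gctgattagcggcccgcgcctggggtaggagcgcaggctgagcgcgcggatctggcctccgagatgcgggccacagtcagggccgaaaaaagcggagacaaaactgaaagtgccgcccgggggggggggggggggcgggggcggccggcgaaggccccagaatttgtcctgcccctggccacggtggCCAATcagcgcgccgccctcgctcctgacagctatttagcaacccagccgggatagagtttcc
The *Tcf21* stretch has 52.4% G and C with 5 CpG, which is at the median of all 32851 windows of the RefSeq table (52.4%, with a median of 6 CpG). For *Twist2* the values are 68.8% and 23 CpG. Neither stretch holds the E-box letters CANNTG, which 66.2% of all windows hold, and CCAAT on either strand is found in *Twist2* alone of the pair, 63 bases before the start, against 33.8% of all windows. Such matches describe the letters and not binding. Of the 9 genes, 6 had a window in that table.

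Sets 1, 2 and 3 held 766, 5350 and 8457 cells, and 97 cells of set 3 with few genes were left out. Median depth per cell was 19357, 1738 and 1788 UMIs. The gene rows held 52.7%, 50.4% and 49.4% of the UMIs. Sets 2 and 3 shared 13 barcodes, sets 1 and 2 shared 1, and sets 1 and 3 shared 0. Cells were put into 13 clusters without using the 9 genes or their relatives, and a cluster was given a class name from its markers. The classes used here, with their cells in sets 1, 2 and 3, were fibroblast-like (369, 1659 and 2620), smooth muscle-like (88, 1604 and 1960), pericyte-like (11, 30 and 130) and epithelium-like cells (111, 941 and 2316). Glia-like, leukocyte-like, endothelium-like and neuron-like clusters served as further points.

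The fibroblast-like class came from a pair of clusters. One was led by *Dpt* and *Lum* (156, 859 and 1101 cells) and the other carried *Col15a1* among its leading genes (213, 800 and 1519 cells). Of the 8 markers fixed for the *Dpt* type, 7, 6 and 8 were higher there in sets 1, 2 and 3 and 0 were higher in the other cluster. The data went partly against the name of the other, since of its 8 markers 2, 4 and 4 were higher in it and 3, 3 and 4 were higher in the *Dpt* type. *Col15a1* itself was at 42.1 against 38.2 CPM in set 1, 373 against 62.1 CPM in set 2 and 612 against 287 CPM in set 3. The Wnt inhibitor *Wif1* separated the types in every set, at 65.9, 99.9 and 44.5 CPM against 0.541, 5.65 and 2.31 CPM. "*Col15a1* type" below is therefore the name of a cluster led by *Lamc3*, *Fgf21* and *Mmp2*. *Tcf21*, although it took no part in the clustering, was among its 10 leading genes.

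Markers of other cell types moved with some classes. In smooth muscle-like cells the 7 fibroblast markers summed to 5283, 4645 and 2956 CPM, against 15448, 15654 and 16848 CPM in fibroblast-like cells. The 7 smooth muscle markers with a row (*Acta2*, *Myh11* and other classical ones are not among the rows used) summed to 4788 CPM in smooth muscle-like cells of set 1, to 27396 CPM in set 2 and to 26286 CPM in set 3. In set 1 these 88 cells also held 5281 CPM of 4 red cell genes. Of the *Dpt* type cells of set 1, 18 of 156 had a UMI of the pericyte gene *Rgs5*. A further cluster of 52, 645 and 662 cells got no name and entered no class, because its leading genes included the muscle regulators *Myod1* and *Myf5* beside epithelial ones. A UMI of *Myod1* or *Myf5* was in 14, 2 and 0 of these cells and one of the epithelial gene *Sfn* in 40, 641 and 659, and the epithelium markers summed to 5244, 6298 and 7394 CPM, against 9261, 5316 and 5738 CPM in the epithelium-like class. Another cluster of 6, 149 and 44 cells, led by cell division genes such as *Cenpf*, carried the fibroblast and the smooth muscle markers alike and also entered no class. The smooth muscle-like cluster was led by *Car3*, *Actg2* and *Myl9*, with the striated muscle troponins *Tnnt2*, *Tnnc2* and *Tnnt1* among its 10 leading genes. The part of these markers in the levels below was not tested, beyond the alternatives named beside a result.

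Among the named classes 8 of the 9 genes had their highest level in a fibroblast, smooth muscle or pericyte class in every set, though not always apart from other classes. The share of all genes with such a pattern was not counted, so this is a description without a background. For *Runx1t1* in set 2 that class was pericyte-like cells with 1 UMI, and for *Nr2f2* in sets 2 and 3 pericyte-like cells, which counting error did not separate from glia-like cells. *Tcf21*, *Prrx1*, *Twist2*, *Wt1* and *Runx1t1* were under 10 CPM in epithelium-like cells in every set. *Tbx3*, *Nr2f2* and *Meis2* had sizeable levels in the epithelium-like cells of set 1. *Zeb2* was the one gene whose highest levels lay outside the stroma, in leukocyte-like and glia-like cells.

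**Figure D1:**
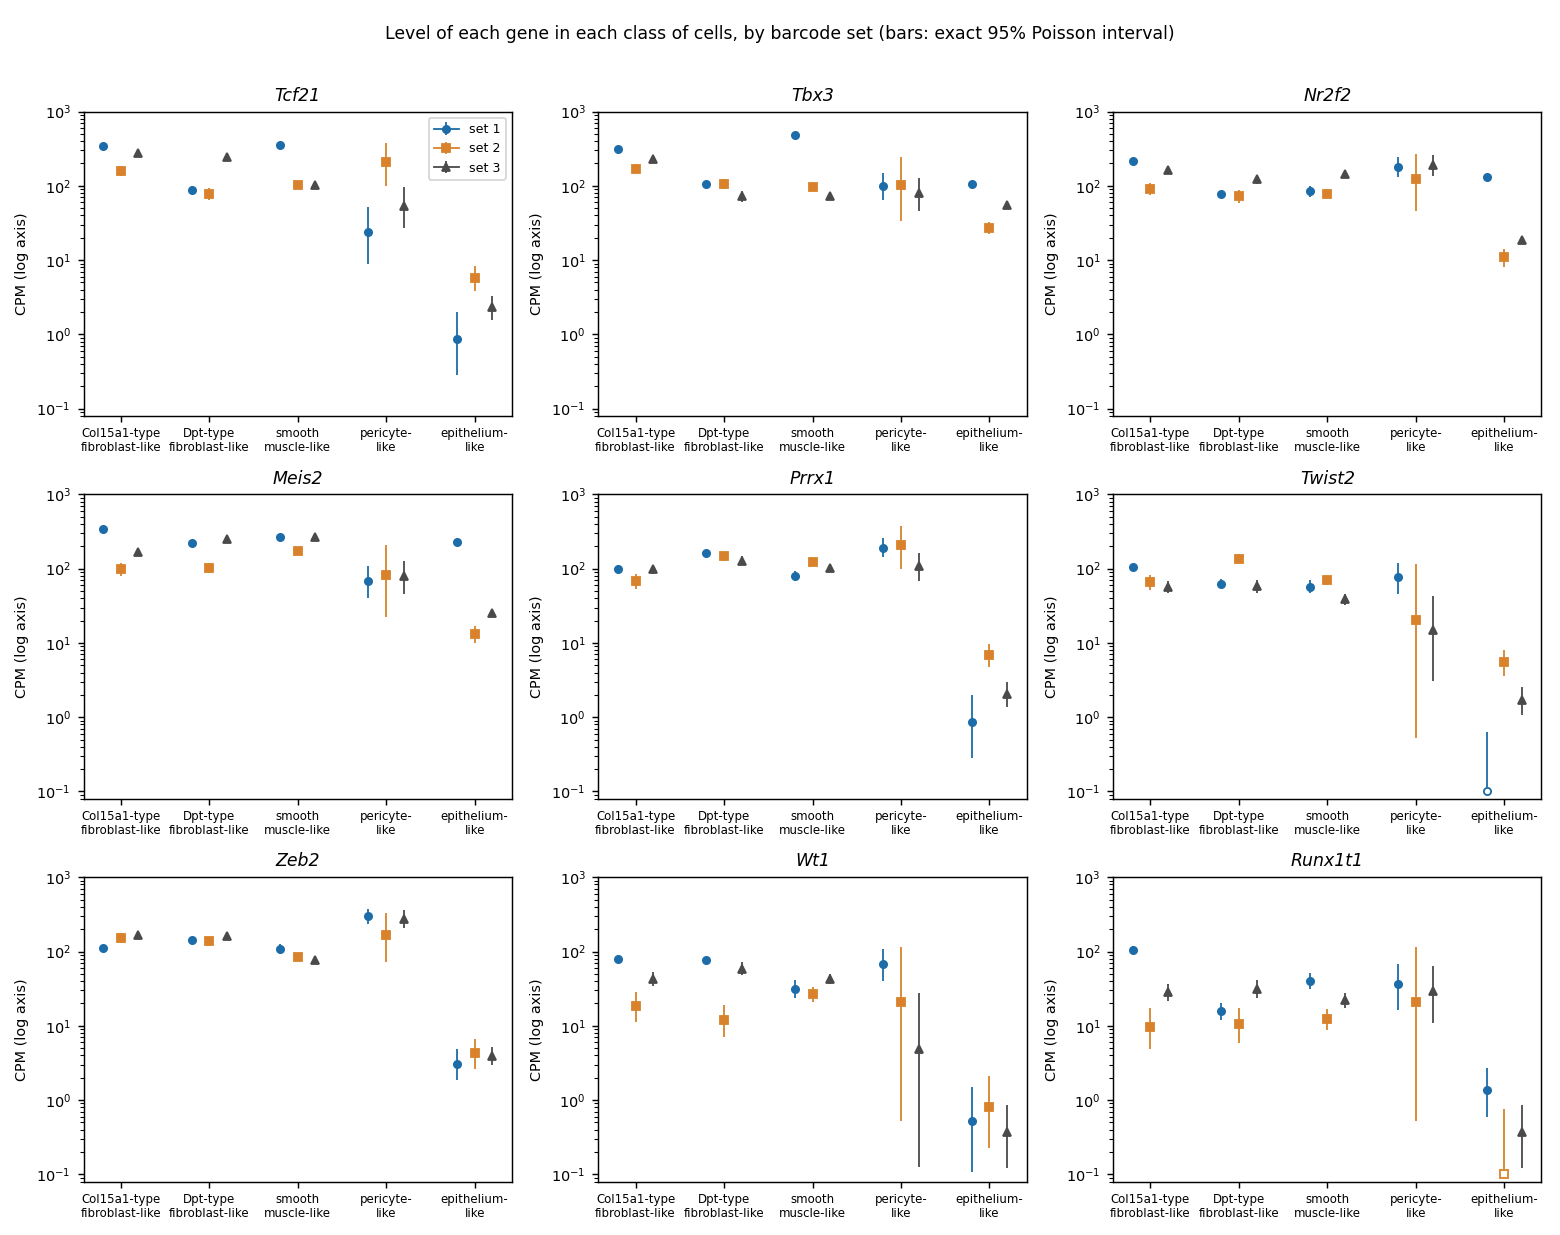
Level of each of the 9 genes (CPM, log axis) in 5 cell classes, with 1 symbol per barcode set and bars for the 95% Poisson interval; an open symbol at the foot of the axis stands for 0 UMIs. *Tcf21*, *Prrx1*, *Twist2*, *Wt1* and *Runx1t1* lie under 10 CPM in epithelium-like cells in every set, while *Meis2* reaches 229 CPM there in set 1.

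*Tcf21*, a factor that restrains smooth muscle fate and keeps fibroblast precursors, was at 344 CPM (95% interval 325 to 364) in *Col15a1* type cells of set 1, at 159.6 CPM (137 to 185) in set 2 and at 280.3 CPM (258 to 304) in set 3. In *Dpt* type cells it was at 88.2, 77.6 and 245 CPM. The *Col15a1* type was the higher of both fibroblast types in every set, by less than 2-fold in set 3, but in set 2 the *Dpt* type was the higher without integration of the sets (log2 ratio 0.50) and with cells of at least 500 genes (0.38). Smooth muscle-like cells had 353 CPM (326 to 382) in set 1, 103 CPM (92.1 to 115) in set 2 and 103 CPM (92.9 to 114) in set 3. In set 1 this top level and that of the *Col15a1* type did not differ beyond counting error, with a log2 ratio of 0.04 (-0.10 to 0.18). Leaving out the 3 smooth muscle-like cells of set 1 with a *Myod1* or *Myf5* UMI gave 371 CPM.

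Pericyte-like cells had 24.1, 207 and 54.4 CPM of *Tcf21*, from 6, 10 and 11 UMIs, and glia-like cells 41.6, 15.4 and 14.2 CPM. Epithelium-like cells had 5, 28 and 31 UMIs in all, or 0.861, 5.73 and 2.31 CPM. Leukocyte-like cells, which should lack the gene, had 0, 1 and 5 UMIs, and their shares of cells with a UMI were 0%, 4% and 2.26% at median depths of 10313, 2027 and 2003 UMIs. The shares in epithelium-like cells (2.7%, 2.76% and 0.907% at medians of 46833, 2713 and 3089.5 UMIs) were not above those in sets 2 and 3, so they are not read as expression there, and in set 1 they rest on 3 cells. The measure is weak in set 2, where it rests on 1 of 25 leukocyte-like cells and these cells also held 7136 CPM of smooth muscle and 1586 CPM of fibroblast markers. In fibroblast-like cells 70.5%, 14.4% and 24.8% had a UMI at medians of 15731, 1251 and 1326.5 UMIs. Thinned to 900 UMIs per cell, the shares were 16.1%, 8.57% and 17.6%.

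*Prrx1*, a regulator of limb and craniofacial mesenchyme, was higher in *Dpt* type than in *Col15a1* type cells in every set, at 161, 148 and 128 CPM against 101, 67.5 and 97.9 CPM. Smooth muscle-like cells had 80.1, 123 and 101 CPM and pericyte-like cells 193, 207 and 109 CPM, where set 2 rested on 10 UMIs. In set 1 the 11 pericyte-like cells had 48 UMIs, of which 20 were in 1 cell and 83.3% in 5 cells. These neighbouring levels of pericyte-like and *Dpt* type cells did not differ beyond counting error in any set. Epithelium-like cells had 0.861, 6.96 and 2.08 CPM.

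*Twist2*, a repressor that holds back osteoblast and muscle differentiation, was at 105, 65.8 and 56.8 CPM in *Col15a1* type and at 63.1, 137 and 57.7 CPM in *Dpt* type cells. The *Dpt* type was the lower in set 1 and the higher in set 2 (the lower there without integration, with a log2 ratio of -0.41), and in set 3 the levels were not separated (log2 ratio 0.02, from -0.38 to 0.42). Smooth muscle-like cells had 57.2, 69.9 and 38.7 CPM. Epithelium-like cells of set 1 had 0 UMIs of *Twist2* in 111 cells, which allows up to 0.517 CPM by a floor of 3 UMIs (the one-sided 95% limit of a count of 0), and those of sets 2 and 3 had 5.53 and 1.71 CPM.

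*Wt1*, needed for kidney and gonad formation and active in mesothelium and its mesenchymal progeny, was at 77.5 CPM (71.2 to 84.2) in fibroblast-like cells of set 1, at 14.9 CPM (10.5 to 20.4) in set 2 and at 50.3 CPM (43.4 to 58) in set 3. Smooth muscle-like cells had 31.5, 26.5 and 42.6 CPM and epithelium-like cells 0.517, 0.819 and 0.372 CPM. The 4 mesothelial markers with a row summed to 4.16, 0.391 and 3.73 CPM in fibroblast-like cells, and the part of mesothelial RNA in the level of *Wt1* was not tested. The *Col15a1* and *Dpt* types had 79 and 76 CPM in set 1 and 18.4 and 12 CPM in set 2, which counting error did not separate. In set 3 the *Dpt* type was the higher, at 58.9 against 43 CPM (log2 ratio 0.45, from 0.03 to 0.88), but with cells classed one by one the ratio was -0.17.

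*Runx1t1*, a partner of histone deacetylases known from fat cell differentiation, was at 60 CPM in fibroblast-like cells of set 1, and at 10.2 and 29.8 CPM in sets 2 and 3. Set 1 showed the widest gap between fibroblast types among the 9 genes, with 106 CPM (95.8 to 118) in *Col15a1* type and 16 CPM (12.2 to 20.6) in *Dpt* type cells. In sets 2 and 3 the types had 9.64 and 10.6 CPM, and 28.2 and 31.7 CPM, which counting error did not separate. Neuron-like cells of set 1 had 43 CPM from 32 cells, not separable from the 40.6 CPM of smooth muscle-like cells. Epithelium-like cells had 8, 0 and 5 UMIs.

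*Tbx3*, which is needed for mammary and limb growth, was highest in smooth muscle-like cells of set 1 at 477 CPM (445 to 511) and in *Col15a1* type cells of sets 2 and 3 at 170.1 and 229.9 CPM. The *Col15a1* type of set 1 had 309 CPM, and the *Dpt* type had 106, 106 and 72.1 CPM. In smooth muscle-like cells of set 1, 1 cell held 67 of the 834 *Tbx3* UMIs, and 5 cells held 29.5% of them. In sets 2 and 3 the levels of *Dpt* type, pericyte-like and smooth muscle-like cells lay between 72.1 and 106 CPM and neighbours in that order did not differ beyond counting error. In epithelium-like cells *Tbx3* was at 105 CPM (97 to 114), 27.2 CPM (22.8 to 32.3) and 55.9 CPM (52 to 60.1), with a UMI in 85.6%, 11.3% and 22.5% of cells. Leukocyte-like cells had a *Tbx3* UMI in 2.63%, 8% and 2.82% of cells, and in set 2 their 24.4 CPM, from 2 UMIs, was not separated from the epithelial level, which is therefore not read as expression in that set. Expression is not excluded either, since these 25 leukocyte-like cells also held stromal marker RNA.

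*Nr2f2*, known from veins, uterine stroma and mesenchymal organs, was at 214, 91.2 and 161 CPM in *Col15a1* type, 76.9, 72 and 122 CPM in *Dpt* type and 84.1, 77.7 and 144 CPM in smooth muscle-like cells. Pericyte-like cells had 181, 124 and 193 CPM, which did not differ beyond counting error from the *Col15a1* type in set 1 or from glia-like cells in sets 2 and 3. In set 1, 5 of the 11 pericyte-like cells held 91.1% of their *Nr2f2* UMIs. Glia-like cells had 113, 104 and 170.2 CPM and endothelium-like cells 57.9, 81.8 and 91.1 CPM. Stromal RNA was also found in these classes. The fibroblast markers summed to 1628, 5970 and 5115 CPM and the smooth muscle markers to 978, 4406 and 2655 CPM in glia-like cells. In endothelium-like cells the sums were 165, 1483 and 969 CPM and 509, 4368 and 1365 CPM, and their part in the levels of the 9 genes was not tested. Leukocyte-like cells were at 0, 24.4 and 26.6 CPM, from 0, 2 and 11 UMIs.

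*Meis2*, a cofactor of HOX and PBX proteins, was at 340.1, 98.2 and 169 CPM in *Col15a1* type, 225, 103 and 252 CPM in *Dpt* type and 264, 172 and 265 CPM in smooth muscle-like cells. In sets 2 and 3 smooth muscle-like cells ranked first, and in set 3 they did not differ from the *Dpt* type beyond counting error. Pericyte-like cells had 68.2, 82.6 and 79.1 CPM of *Meis2*, from 17, 4 and 16 UMIs.

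In epithelium-like cells *Meis2* was at 229 CPM (217 to 242) in set 1, 13.1 CPM (10.1 to 16.7) in set 2 and 25.4 CPM (22.8 to 28.3) in set 3, and *Nr2f2* was at 131, 10.8 and 18.9 CPM. Leukocyte-like cells had 0, 24.4 and 21.8 CPM of *Meis2* from 0, 2 and 9 UMIs. In sets 2 and 3 the epithelial levels of *Meis2* and *Nr2f2* were thus under or near those in leukocyte-like cells and are not read as expression. In set 2 this reference is weak, with 25 cells and an interval of 2.95 to 88.1 CPM for *Meis2*. Those cells also held stromal marker RNA, so epithelial expression is not excluded. Within set 1 the epithelium-like cells came from a pair of clusters, one of 78 cells led by *Clca1*, *Wfdc3* and *Asprv1* and one of 33 cells led by *Wfdc15b*, *Folr1* and *Sptssb*. *Meis2* was at 319 CPM in the former, with a UMI in 92.3% of cells, and at 15.8 CPM in the latter, a log2 ratio of 4.33 (3.79 to 4.94). *Nr2f2* was at 167 against 42.7 CPM, a log2 ratio of 1.97 (1.62 to 2.34). *Tbx3* was at 95.9 against 127 CPM, a log2 ratio of -0.41 (-0.65 to -0.16).

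The same clusters did not separate *Meis2* or *Nr2f2* in the other sets. *Meis2* had 11.8 against 17.7 CPM in set 2 and 24.2 against 28.0 CPM in set 3. *Nr2f2* had 12.7 against 10.6 CPM and 20.5 against 16.0 CPM. The third epithelium-like cluster, with 0 cells of set 1, 482 of set 2 and 1263 of set 3, had 15.9 and 28.1 CPM of *Meis2* in sets 2 and 3. The fibroblast markers summed to 52.7 CPM in the epithelium-like cells of set 1, where *Prrx1* and *Tcf21* each had 5 UMIs and *Meis2* had 1332. Other marker lists did move with set 1. The 5 pericyte markers summed to 183, 10.2 and 6.99 CPM in epithelium-like cells of sets 1, 2 and 3, with an *Rgs5* UMI in 29.7%, 1.59% and 2.03% of cells, and the 4 mesothelial markers summed to 107, 1.02 and 7.07 CPM. Their part in the levels of *Meis2* and *Nr2f2* was not tested.

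**Figure D2:**
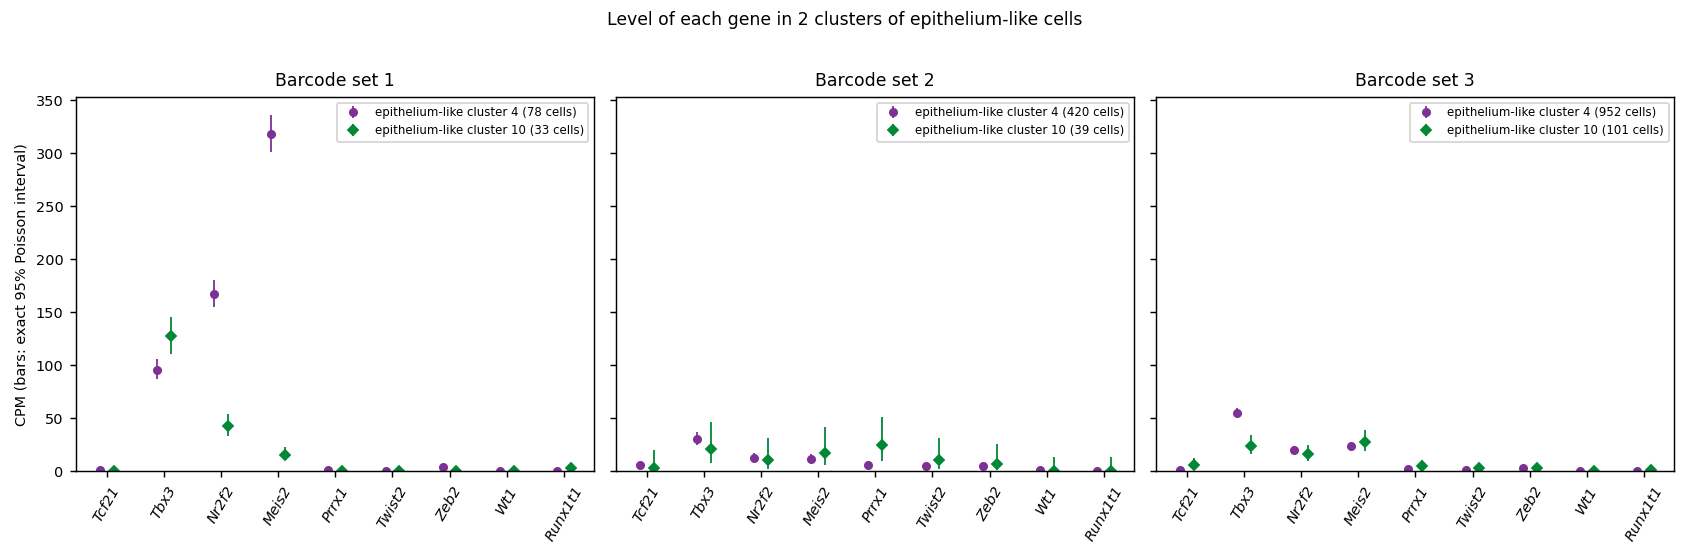
Levels of the 9 genes (CPM, linear axis) in the 78 and 33 epithelium-like cells of set 1 that fell into different clusters and in the same clusters of sets 2 and 3, with 95% Poisson intervals. In set 1 *Meis2* (319 against 15.8 CPM) and *Nr2f2* (167 against 42.7 CPM) stand higher in the cluster of 78 cells and *Tbx3* is the lower there (95.9 against 127 CPM).

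*Zeb2*, a repressor of E-cadherin known from epithelial to mesenchymal transition, neural crest and myeloid cells, was at 127, 143 and 165 CPM in fibroblast-like cells. Leukocyte-like cells had 411 CPM (355 to 472), 378 CPM (257 to 537) and 440.5 CPM (379 to 509). Glia-like cells had 378, 358 and 475 CPM. These were the highest levels in every set, and leukocyte-like and glia-like cells did not differ from each other beyond counting error. In set 1 pericyte-like cells (301 CPM) did not differ from glia-like cells either (log2 ratio 0.33, from -0.06 to 0.73).

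Over fibroblast-like cells the log2 ratio of *Zeb2* in leukocyte-like cells was 1.69, 1.40 and 1.42, and in glia-like cells 1.57, 1.32 and 1.53, with every interval above 0. Pericyte-like cells had 301, 165 and 277 CPM and smooth muscle-like cells 109, 83.6 and 76.4 CPM. In epithelium-like cells, the class that should lack *Zeb2*, the levels were 3.1, 4.3 and 3.94 CPM and the shares of cells with a UMI 10.8%, 2.13% and 1.94%, against 63.2%, 56% and 45.8% of leukocyte-like cells. The 11 leukocyte markers summed to 2.49, 8.60 and 19.7 CPM in fibroblast-like cells and to 0, 0 and 4.94 CPM in pericyte-like cells. Leukocyte-like cells of set 2 were 25 cells that also held 7136 CPM of smooth muscle markers, and the part of that RNA in their level was not tested.

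**Figure D3:**
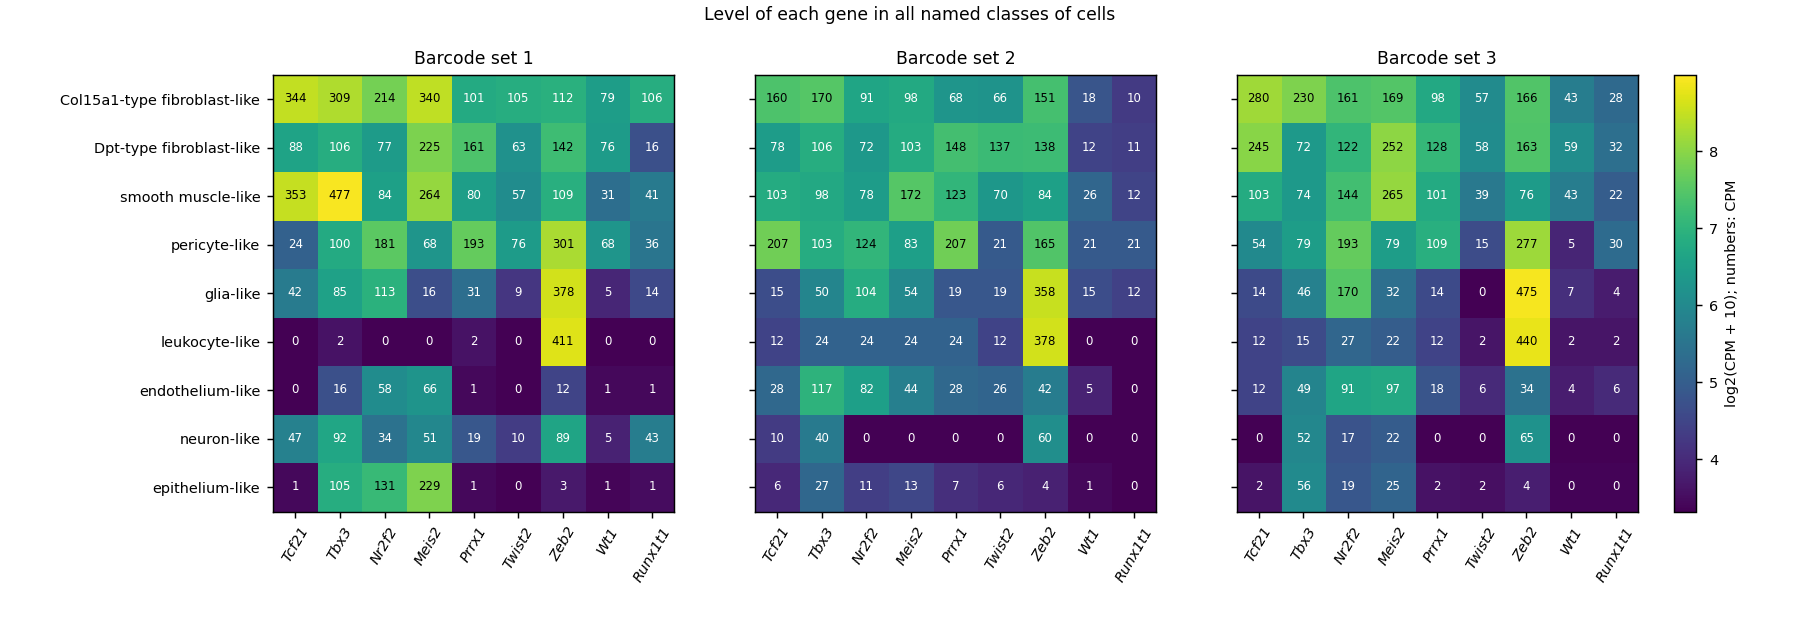
Heat map of the 9 genes over 9 cell classes in barcode sets 1, 2 and 3, coloured by log2(CPM + 10), with the CPM written in each cell. *Zeb2* is highest in the leukocyte-like and glia-like classes (358 to 475 CPM), and the other genes in fibroblast, smooth muscle or pericyte classes.

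The first comparison asked which of the 9 genes separate stroma from epithelium. A gene was called when its levels were at least 2-fold apart with the interval of the log2 ratio on 1 side of 0, and it was considered when both classes together had at least 10 UMIs. Of the 9 genes, 6 were called higher in fibroblast-like than in epithelium-like cells in set 1, 9 in set 2 and 9 in set 3, and 0 were called lower. Among all genes considered, 24.7%, 20.7% and 22.3% were called higher in sets 1, 2 and 3 and 16.5%, 15.3% and 20.5% lower. The median log2 ratio over the 9 genes was 5.45, 4.05 and 5.38, beside 0.18, 0.08 and -0.13 over all genes considered. As the list was chosen with earlier results of these data known, these counts and medians only describe it.

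*Tcf21* had a log2 ratio of 7.95 (6.72 to 9.57) over epithelium-like cells in set 1, 4.32 (3.75 to 4.93) in set 2 and 6.84 (6.32 to 7.40) in set 3. *Prrx1* had 7.26, 4.01 and 5.75. For *Wt1* the ratios were 7.23 (5.67 to 9.51), 4.18 and 7.08, with 3, 4 and 5 UMIs in epithelium-like cells. *Zeb2* was at 5.36 (4.69 to 6.12), 5.06 (4.43 to 5.77) and 5.38 (4.98 to 5.82). With cells classed one by one all of these ratios were smaller. *Tcf21* was then at 5.58, 3.29 and 5.51, *Prrx1* at 5.52, 2.91 and 4.61, *Wt1* at 5.96, 2.26 and 4.58, and *Zeb2* at 5.16, 3.42 and 4.28.

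Against the floor of 3 UMIs *Twist2* was at least 162-fold higher in fibroblast-like cells of set 1, where epithelium-like cells had 0 UMIs, and its log2 ratio was 4.25 in set 2 and 5.06 in set 3. That bound holds for these classes only, as with cells classed one by one the log2 ratio of *Twist2* was 5.18, 3.47 and 4.09 in sets 1, 2 and 3. *Runx1t1* was at least 16.6-fold higher in set 2 against the same floor, again with 0 UMIs, with log2 ratios of 5.45 in set 1 and 6.33 in set 3. In set 1 the genes that missed the call were *Tbx3* (0.96, from 0.83 to 1.10), *Nr2f2* (0.14, from 0.00 to 0.27) and *Meis2* (0.29, from 0.19 to 0.39). Their ratios in sets 2 and 3 were 2.31 and 1.49 for *Tbx3*, 2.89 and 2.92 for *Nr2f2*, and 2.95 and 3.02 for *Meis2*.

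**Figure D4:**
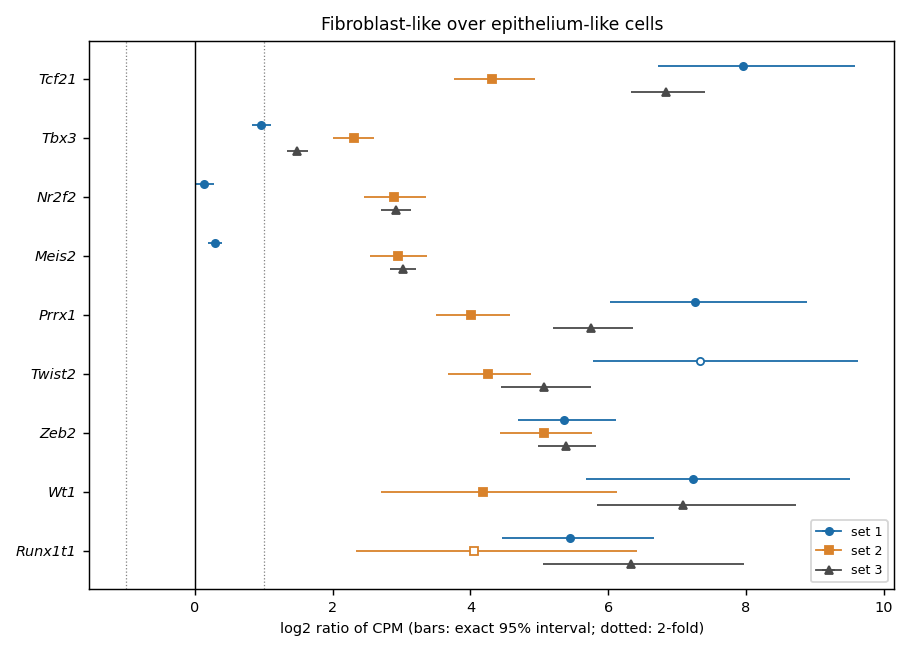
Log2 ratio of the level in fibroblast-like over epithelium-like cells for the 9 genes in each barcode set, with 95% intervals; open symbols mark ratios whose epithelial sum was under 3 UMIs. *Tbx3*, *Nr2f2* and *Meis2* lie under 1 in set 1 and every other value lies above 1.

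Detection was also counted per cell. Thinned to 900 UMIs, 66.5%, 50.5% and 60.8% of fibroblast-like cells had a UMI of at least 1 of the 9 genes, and 28.9%, 13.3% and 22.7% had UMIs of at least 2 of them. In smooth muscle-like cells the first shares were 72.9%, 48.5% and 53.1%, while epithelium-like cells had 32.4%, 5.69% and 10.9%. In leukocyte-like cells they were 31.6%, 52.2% and 33.9%, where *Zeb2* alone was seen in 31.6%, 47.8% and 31.0%. Cells with fewer than 900 UMIs were left out (7 of set 1, 342 of set 2 and 693 of set 3).

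The second comparison set the fibroblast types against each other. In set 1, 4 of the 9 genes were lower in *Dpt* type than in *Col15a1* type cells and 0 were higher, while 24.9% of all genes considered were called in either direction. In set 2, 2 were higher and 1 lower, against 5.84% of all genes in either direction (3.12% higher and 2.72% lower). In set 3, 1 was lower, against 8.44% in either direction and 3.75% lower. The median log2 ratio of the 9 was -0.74, -0.13 and 0.02, beside -0.30, 0.05 and 0.01 over all genes considered, and in set 1 17.3% of all genes were called lower and 7.56% higher.

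The 4 genes of set 1 were *Runx1t1* with a log2 ratio of -2.73 (-3.16 to -2.34), *Tcf21* with -1.96 (-2.14 to -1.78), *Tbx3* with -1.55 (-1.72 to -1.38) and *Nr2f2* with -1.48 (-1.68 to -1.28). *Tcf21* was again lower in set 2 at -1.04 (-1.39 to -0.69), and was at -0.20 (-0.38 to -0.01) in set 3. In set 2 its direction turned when the sets were clustered without integration (log2 ratio 0.50) or when only cells with at least 500 genes were kept (0.38). *Tbx3* was at -0.68 (-1.001 to -0.37) in set 2 and was called lower in set 3 at -1.67 (-1.97 to -1.38). It had the lower level in the *Dpt* type in all 3 sets. With cells classed one by one *Tcf21* was at -0.99, -0.40 and -0.44 and *Tbx3* at -1.26, -0.44 and -0.52 in sets 1, 2 and 3, and 3, 0 and 0 genes were called.

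The genes called higher in the *Dpt* type of set 2 were *Prrx1* at 1.13 (0.75 to 1.53) and *Twist2* at 1.06 (0.67 to 1.46), and without integration *Twist2* turned to -0.41. *Prrx1* was at 0.68 (0.49 to 0.88) in set 1 and 0.39 (0.11 to 0.67) in set 3, above 0 in every set and under 2-fold in those. With cells classed one by one *Prrx1* was at 0.76, 0.38 and -0.12 and *Twist2* in set 2 at 0.29. *Meis2* was at -0.60 (-0.72 to -0.47) in set 1, 0.07 (-0.30 to 0.44) in set 2 and 0.58 (0.37 to 0.79) in set 3, but at -0.47, -0.03 and -0.008 with cells classed one by one. *Zeb2* stayed between -0.13 and 0.34. Without integration 1, 0 and 0 genes were called in sets 1, 2 and 3, but the *Col15a1* type then held 3, 1461 and 39 cells and the *Dpt* type 480, 251 and 2648, so set 1 could hardly be compared.

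The third comparison was between smooth muscle-like and fibroblast-like cells. In set 1, *Tbx3* was higher in smooth muscle-like cells (log2 ratio 1.22, from 1.09 to 1.34) and *Wt1* lower (-1.30, from -1.73 to -0.90), with 10.5% of all genes called in either direction. With cells classed one by one *Tbx3* (0.83) and *Wt1* (-0.65) fell under 2-fold in set 1 and *Nr2f2* was at -1.17. In set 2, 0 of the 9 genes were called against 17.2% of all genes. In set 3, *Tcf21* (-1.36, from -1.53 to -1.18), *Zeb2* (-1.11, from -1.32 to -0.90) and *Tbx3* (-1.09, from -1.31 to -0.88) were lower. Of all genes 24.8% were called in either direction there and 13.5% lower. Medians of the 9 were -0.55, -0.05 and -0.44, beside -0.02, -0.12 and -0.08 over all genes considered.

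The remaining values were within 2-fold. *Tcf21* was above 0 in set 1 (0.73, from 0.59 to 0.87, but 0.07 with cells classed one by one) and at -0.15 in set 2, and *Tbx3* was at -0.46 in set 2. *Wt1* was above 0 in set 2 (0.83, from 0.26 to 1.43) and at -0.24 in set 3, and *Zeb2* was at -0.22 and -0.78 in sets 1 and 2. *Prrx1* was at -0.72, 0.13 and -0.14, and *Nr2f2* at -0.77, -0.05 and 0.01, so that in sets 2 and 3 neither differed beyond counting error. *Meis2* was above 0 in sets 2 (0.77, from 0.55 to 0.99) and 3 (0.36, from 0.22 to 0.50), and *Twist2* below 0 in every set (-0.55, -0.59 and -0.56). *Runx1t1* was at -0.56, 0.29 and -0.44. Each of these ratios includes the fibroblast marker RNA of smooth muscle-like cells given above, whose part in them was not tested. In set 1 the calls were 0 without integration, which left 5 smooth muscle-like cells, and 5 with cells of at least 500 genes.

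The fourth comparison was between pericyte-like and fibroblast-like cells and rested on few cells, which also held 5341, 7807 and 11813 CPM of the smooth muscle markers and 4065, 6320 and 2486 CPM of the fibroblast markers. The part of that RNA in the ratios was not tested. In set 1, *Zeb2* was higher (log2 ratio 1.25, from 0.89 to 1.59) and *Tcf21* (-3.14, from -4.59 to -2.02), *Meis2* (-2.04, from -2.83 to -1.36) and *Tbx3* (-1.03, from -1.66 to -0.46) were lower, against 10.8% of all genes called in either direction. With cells classed one by one *Zeb2* was at -0.002 in set 1 and the call was lost. The 11 cells had 75 UMIs of *Zeb2*, of which 81.3% were in 5 cells, and 1 cell held 16 of the 25 UMIs of *Tbx3* and 14 of the 17 of *Wt1*. In set 2, 0 of the 9 were called in 30 cells, against 4.58% of all genes. As 1 UMI there was 20.7 CPM, genes at a low level in fibroblast-like cells could not be called lower.

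In set 3, with 130 cells, *Tcf21* (-2.28, from -3.29 to -1.43), *Twist2* (-1.95, from -4.24 to -0.38), *Wt1* (-1.76, from -4.05 to -0.19) and *Meis2* (-1.39, from -2.20 to -0.68) were lower. Of all genes 15.5% were called in either direction and 4.98% lower. *Wt1* had 1 UMI there and *Twist2* 3, and the ratio of *Wt1* counts that UMI as 3. *Zeb2* was above 0 at 0.75 (0.33 to 1.15) without reaching 2-fold. The median of the 9 was -0.18, 0.00 and -0.99, beside 0.00 in each set over all genes considered. A median of 0.00 here includes ratios that the floor of 3 UMIs set to 0. Such ratios gave no value, so 0.00 is not read as no difference. *Tcf21* and *Meis2* were thus called lower in pericyte-like cells in sets 1 and 3, and *Prrx1* and *Nr2f2* in 0 sets. With cells classed one by one 1 gene was called in set 3, where *Tcf21* was at -2.55 and *Meis2* at -0.91. With cells thinned to 900 UMIs the calls were 0 in set 1 and 2 in set 3.

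**Figure D5:**
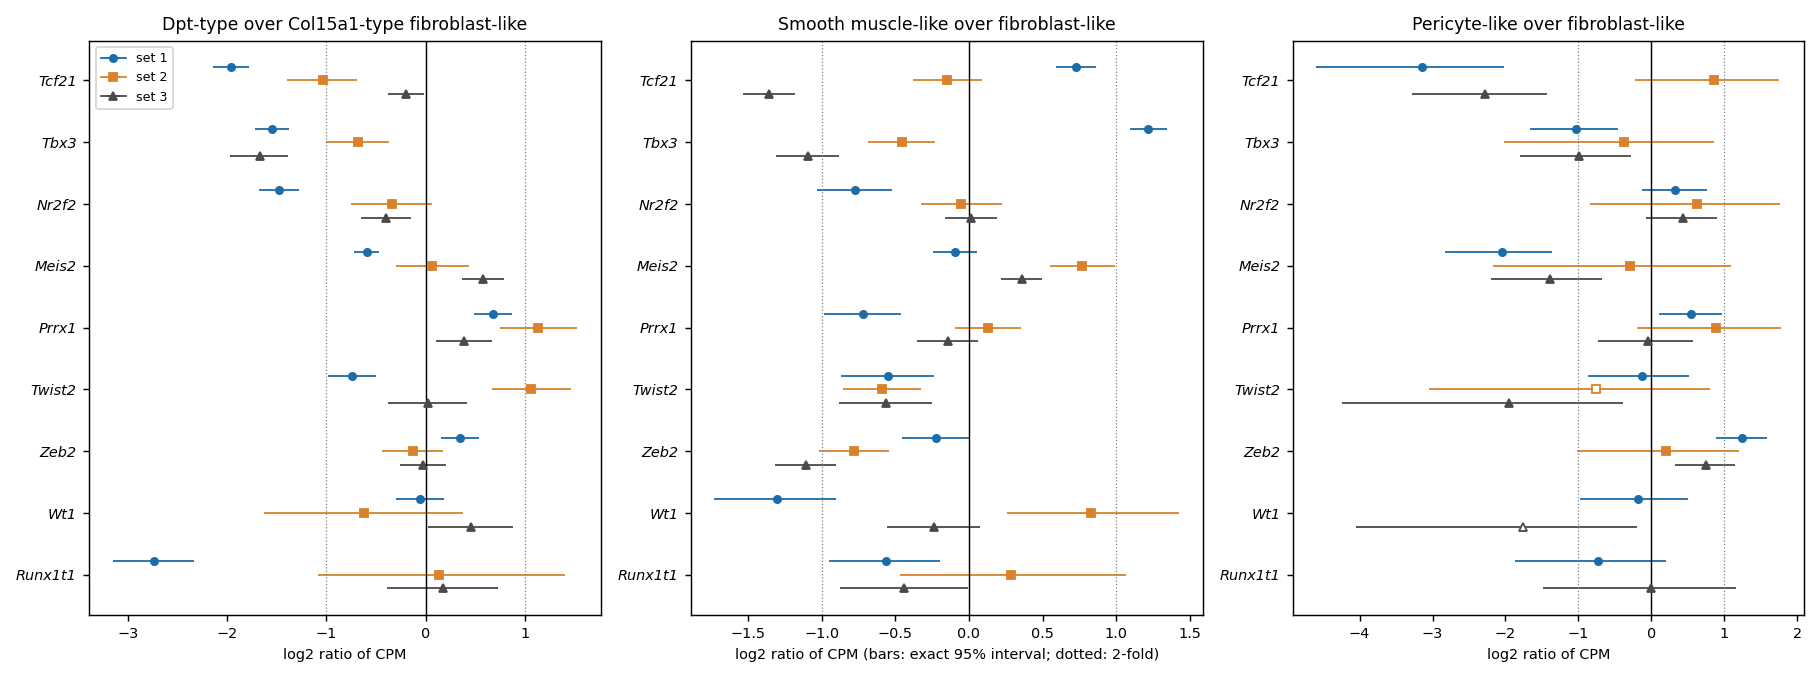
Log2 ratios with 95% intervals for the 9 genes in the comparison of *Dpt* type over *Col15a1* type, smooth muscle-like over fibroblast-like and pericyte-like over fibroblast-like cells, by barcode set; ratios that gave no value are not drawn. *Tcf21* and *Tbx3* lie at or under 0 in the first panel in every set, and *Tbx3* lies at 1.22, -0.46 and -1.09 in the second.

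Likeness of levels was taken over 24 points (a class in 1 set with at least 20 cells) as Pearson's r of log2(CPM + 10) against 7875 rows with enough UMIs. The points share libraries, and values within a set share its depth, so r is a description. *Tcf21*, *Prrx1* and *Twist2* all had the collagen gene *Col6a2* as the most alike row (r 0.90, 0.93 and 0.91), and *Tcf21* had *Prrx1* in second place (0.89). *Prrx1* was further like *Ddr2*, a collagen receptor (0.92), and *Col6a1* (0.91), *Tcf21* like *Dkk3* (0.88), and *Twist2* like *Bnc2* (0.90) and *Penk* (0.88). *Wt1* was most like *Bnc2* (0.87), *Tcf21* (0.86) and *Emilin1* (0.86).

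*Tbx3* was most like *Gata2* (0.86), *Hoxa10* (0.85) and *Phf13* (0.83), and *Nr2f2* like *Camk2n1* (0.81), *Nfia* (0.80) and *Dynll1* (0.79). For *Meis2* the rows were the heat shock genes *Dnaja1* (0.87) and *Hspb8* (0.84) and the early response gene *Ier2* (0.83). *Runx1t1* was most like *Fam171b* (0.86), *B4galt2* (0.86) and *Hnrnph3* (0.85). *Zeb2* went with *Emp3* (0.79), *Mical1* (0.77) and *Dennd5a* (0.77), and its r with the other 8 genes lay between -0.18 and 0.36.

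Relatives of the 9 genes and other mesenchymal factors made up a list, also chosen with earlier results of these data known, of which 26 have a row. Of those considered, 20 of 25, 18 of 22 and 16 of 23 were higher in fibroblast-like than in epithelium-like cells in sets 1, 2 and 3, and 0, 1 and 0 were lower, against the 24.7%, 20.7% and 22.3% of all genes called higher and the 16.5%, 15.3% and 20.5% called lower. Highest by the median ratio were *Hand2*, a helix-loop-helix factor of heart and limb, *Ebf3* and *Gli1*, a target and effector of hedgehog signalling. *Hand2* was at 26.9, 5.08 and 9.32 CPM in fibroblast-like and 0, 0.409 and 0.149 CPM in epithelium-like cells. *Hand2* was higher still in neuron-like cells, at 515, 298 and 297 CPM. *Gli1* was at 17.9, 15.2 and 19.97 CPM against 0.172, 0.819 and 0.223 CPM.

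Lowest by the same median were the estrogen receptor gene *Esr1*, *Nfib* and *Nr2f6*, a relative of *Nr2f2*. *Nr2f6* was at 85.1, 95.8 and 46.1 CPM against 111, 70.8 and 46.7 CPM, so unlike *Nr2f2* it was under 2-fold in all 3 sets. *Esr1* was the gene called lower in set 2, at 2.74 against 9.21 CPM, while in set 1 it was called higher at 6.79 against 2.07 CPM and in set 3 it was at 20.8 against 28.5 CPM. *Nfib* was likewise called higher in set 1, at 333 against 52.2 CPM, and was at 150.1 against 199.5 CPM in set 2 and 157 against 204 CPM in set 3, so the rank of both rests on sets 2 and 3. Between fibroblast types 1 of 25, 1 of 21 and 4 of 22 of the list were higher in the *Dpt* type, where 7.56%, 3.12% and 4.69% of all genes considered were higher, and 10, 3 and 2 were lower, against 17.3%, 2.72% and 3.75%. In smooth muscle-like cells 0 of 25, 1 of 22 and 2 of 22 were higher than in fibroblast-like cells, against 4.49%, 8.27% and 11.3% of all genes, and 6, 3 and 6 were lower, against 6.01%, 8.95% and 13.5%. In pericyte-like cells 2 of 25, 0 of 21 and 2 of 23 were higher, against 5.62%, 3.49% and 10.5%, and 6, 1 and 3 were lower, against 5.17%, 1.09% and 4.98%.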

How the data were processed

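The authors deposited 1 table of 9784 gene rows and 14573 cells, made with Cell Ranger 3.1.0 on mm10 per the submitters' processing notes. Its deposited values are on a natural log scale, ln(1 + 10000 × UMIs / total UMIs of the cell), from which whole UMIs and cell totals were recovered (all 11120293 values above 0, within 0.05). The design had foreseen raw counts. The table is held in part, and 1 row filled for some cells only and 2 rows sharing a name were left out. RefSeq matched 9273 rows (94.8%). Labels name v3 chemistry and the methods v2. The study's text gives a cell number for each tissue. That of the UGS equals the number of barcodes of set 1 and those of the prostates equal neither of the other sets, and as the labels give no key, sets were not tied to tissues. Total depth was 20511786, 15929745 and 27444044 UMIs in sets 1, 2 and 3.

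The 9 genes, the related factors and the marker lists were chosen with earlier results of these data known. Cells with at least 200 genes were clustered in Seurat 5.3.0 (R 4.3.3) as in the study's methods, with integration over 20 dimensions on 2000 features, 30 principal components and resolution 0.5, with the 9 genes and their relatives left out of the features. A marker counted for a cluster if found in 10% or more of its cells and at 2 times the median cluster's rate or more. Of the classes with 3 or more such markers, a cluster took the one with the largest share of its list, ties being settled by markers among the 10 leading genes, and stayed unnamed if still tied or if 3 or more of those 10 genes were among *Myod1*, *Myf5*, *Msc*, *Myog*, *Ttn*, *Myf6* and *Pax7*. The doublet caller of scanpy 1.11.5 marked 3 cells by its automatic threshold and did not work here, and the study's methods state that multiplets had been removed.

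CPM has exact Poisson intervals, shares exact (Clopper-Pearson) intervals and log2 ratios exact binomial-split intervals (scipy 1.17.1), all 95%. Sums under 3 UMIs were set to 3 in ratios, and a ratio that this alone would turn upward was set to 0. Genes named were all 9 genes, the 3 highest and 3 lowest of the related list by the median ratio of fibroblast-like over epithelium-like cells, the 3 rows most alike to each gene, and fixed markers. Cluster leaders, *Myod1* and *Myf5* were named after their values were seen. The intervals were checked on simulated data. No test across genes and no comparison between ages was made.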

Additional observations from a re-analysis of the deposited data

Results flagged for a closer look

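Some genes went one way between cell classes in one barcode set and the other way in another set, with intervals on opposite sides of 0. The difference between sets was not tested, since no set has replicates, and its cause was not tested. *Meis2* was lower in *Dpt* type than in *Col15a1* type cells in set 1 (log2 ratio -0.60, from -0.72 to -0.47) and higher in set 3 (0.58, from 0.37 to 0.79). *Twist2* was lower in the *Dpt* type in set 1 (-0.74, from -0.98 to -0.50) and higher in set 2 (1.06, from 0.67 to 1.46), but without integration the set 2 ratio was -0.41. With cells classed one by one *Twist2* was at -0.25 in set 1 and 0.29 in set 2. The contrast of *Meis2* was gone with cells classed one by one, where the set 3 ratio was at or under 0. Without integration the *Col15a1* type of set 1 held 3 cells, too few to give either contrast.

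Between smooth muscle-like and fibroblast-like cells, *Tcf21* was higher in set 1 (0.73, from 0.59 to 0.87) and lower in set 3 (-1.36, from -1.53 to -1.18). *Tbx3* was higher in set 1 (1.22, from 1.09 to 1.34) and lower in sets 2 (-0.46, from -0.69 to -0.23) and 3 (-1.09, from -1.31 to -0.88). *Wt1* was lower in set 1 (-1.30, from -1.73 to -0.90) and higher in set 2 (0.83, from 0.26 to 1.43). With cells classed one by one *Tcf21* was at only 0.07 in set 1 and at -1.40 in set 3. *Tbx3* was then at 0.83, -0.37 and -1.12 in sets 1, 2 and 3, and *Wt1* at -0.65 and 1.15 in sets 1 and 2. Without integration 5 smooth muscle-like cells were left in set 1, too few to give these contrasts. With cells of at least 500 genes the set 2 ratio of *Wt1* was under 0 and its contrast was gone. The 88 smooth muscle-like cells of set 1 had 4788 CPM of smooth muscle markers, against 27396 and 26286 CPM in sets 2 and 3, and the part of this gap in these ratios was not tested.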

How the results depend on the processing

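Over 11 alternatives, 255 results were recomputed to 2543 values. Counts of genes higher in fibroblast-like than in epithelium-like cells stayed within 1.5 times of 6, 9 and 9 under each of them. The other counts moved by more. Between fibroblast types (4, 3 and 1 called in sets 1, 2 and 3) a fold of 4 left 1, 0 and 0, no integration 1, 0 and 0, cells with at least 500 genes gave 1 in set 2 and 3 in set 3, and classing cells one by one gave 0 in both. For smooth muscle-like against fibroblast-like cells (2, 0 and 3), a fold of 4 left 0 in sets 1 and 3, no integration 0 in set 1, cells with at least 500 genes gave 5 in set 1, and thinning gave 1 in set 2. Cells classed one by one gave 1 in set 1, which was *Nr2f2* in place of *Tbx3* and *Wt1*, and 1 in set 2. For pericyte-like against fibroblast-like cells (4, 0 and 4), a fold of 4 left 2 in set 1 and 1 in set 3, thinning 0 and 2, no integration gave 1 in set 2 and no value in set 1, and one by one classing gave 1 in sets 2 and 3. Reversed were *Tcf21* of *Dpt* over *Col15a1* type in set 2 (no integration 0.50, at least 500 genes 0.38), *Twist2* there (no integration -0.41), and *Zeb2* of pericyte-like over fibroblast-like cells in set 1 (one by one -0.002). The cause was not tested. Without integration set 1 kept 3 *Col15a1* type, 5 smooth muscle-like and 0 pericyte-like cells, so its values there say nothing on stability. Among single log2 ratios 840 stayed (189 of them because the alternative changed no cell of their classes, as for the mitotic cluster), 227 moved and 4 reversed, where only called ratios could count as reversed and others that turned, such as *Wt1* and *Meis2*, are among those that moved. The alternatives of counting the unnamed cluster with epithelial markers as epithelium-like and of leaving out fibroblast-like cells with an *Rgs5* UMI were chosen after seeing the data. No paired analysis was possible because each tissue has 1 library and no set has replicates. Few cells (11, 30 and 130) limit the values of pericyte-like cells.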
